A study of Arabidopsis thaliana with 4 samples.

Results

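Transcripts of 5 named genes, and of 1 further member named here only by its probe set, gave higher signals in leaf discs of Arabidopsis thaliana after 1 h with the reductant dithiothreitol (DTT). The named genes were AT4G34630 (probe set 253228_at), AT4G29520 (253687_at), AT3G53670 (251953_at and 251954_at), AT2G44660 (266869_at) and AT5G47420 (248787_at). The other member was probe set 247293_at, for which the annotation used lists no gene. These 7 probe sets, of 22746 that are not array controls, were chosen by their rise with DTT on the same 4 arrays and by how little is known of most of the genes. Their differences between DTT and control are therefore described below. Calls of these probe sets by a fit over all probe sets are listed, but are no independent test of their rise.

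The DTT group was kept in the dark for 1 h in 2 mM MES buffer, pH 6.5, with 5 mM DTT, and the control group in the same buffer without it. Both groups were discs of full-grown source leaves from wild type Col-0 plants that had not flowered, grown in 14 h days and cut at the end of the 10 h night. Each group had 2 Affymetrix ATH1 arrays from biological replicates, named here DTT 1, DTT 2, control 1 and control 2. Values are MAS5 signals on a linear scale, and a log2 change is DTT minus control.

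DTT reduces the disulfide bonds that secretory proteins need in order to fold in the endoplasmic reticulum (ER). Unfolded proteins in the ER activate the unfolded protein response, in plants through the RNA-splicing kinase IRE1 and membrane-held bZIP transcription factors, which induces chaperones, disulfide isomerases, glycosylation enzymes and degradation factors. Of the named members, AT4G29520 codes for a protein of the ER described as chaperone-like and needed for salt tolerance. AT2G44660 codes for an enzyme of the ALG6 and ALG8 glucosyltransferase family, which adds glucose to the lipid-linked precursor of N-glycans in the ER membrane. No role is given here for AT4G34630, AT3G53670 or AT5G47420.

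The arrays differed more between replicate numbers than between treatments. Log2 signals correlated at 0.968 between DTT 1 and control 1 and at 0.972 between DTT 2 and control 2, against 0.885 between the DTT arrays and 0.919 between the controls. Hybridization control transcripts are added to each labelled sample, and over 9 of their probe sets (AFFX-Bio and AFFX-Cre names) the median ratio was 1.48 for DTT 1 over DTT 2 and 1.69 for control 1 over control 2. Arrays of equal number were therefore compared with each other, and changes are given within each number. No label states what, if anything, arrays of equal number share. The median signal was between 25.4 and 29.6 on the DTT arrays and between 25.9 and 32.8 on the control arrays. Ratios of 3' to 5' probe sets of actin, ubiquitin and GAPDH were lower on DTT 1 than on control 1 for all 3 genes (GAPDH 3.23 against 5.94, actin 2.64 against 3.45, ubiquitin 1.21 against 1.78). They were higher on DTT 2 than on control 2 for all 3 (GAPDH 4.07 against 2.72, actin 4.28 against 2.32, ubiquitin 1.28 against 1.25). Among leaf mesophyll markers, the annotation used matched 2 of 14 to a probe set of their own. Their summed signals were 3187 to 3986 on the DTT arrays and 2887 to 4209 on the control arrays. RCA, the Rubisco activase, made up most of that sum, and its groups overlapped. The other marker, PORB, had 177.6 and 187.5 on the DTT arrays, above the 131.9 and 135.5 on the control arrays. The guard cell marker FMA had signals of 26 and 31.6 on the DTT arrays and 31.4 and 23.8 on the control arrays. The 2 of 3 root markers with a probe set of their own summed to between 22.9 and 27 on the DTT arrays and between 23.7 and 29.6 on the control arrays, and both were under the filter on low signals. The phloem, epidermis and seed lists had no such probe set in the annotation used. In whole discs, a change in the share of a cell type and a change of RNA per cell cannot be told apart.

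AT4G34630 had the largest mean change of the 7 probe sets. Its signal was 596 for DTT 1 and 432.4 for DTT 2, against 55.1 for control 1 and 77.5 for control 2. The DTT arrays lay far above the controls, and the lower DTT signal was 5.58 times the higher control signal. The means were 514 ± 116 in DTT and 66.3 ± 15.8 in control (SD, n = 2). Replicate 1 gave a 10.8-fold change and replicate 2 a 5.58-fold change, or 5.54-fold and 3.51-fold with 64 added to every signal before the logarithm. Among the 13648 probe sets that passed the filter, its change ranked 3 in replicate 1, 4 in replicate 2 and 1 in the mean of the replicates. No probe set tested exceeded it in both replicates at once.

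AT4G29520, the gene of the ER protein, had a large change that was close in size in both replicates. Its signal was 673 for DTT 1 and 264.9 for DTT 2, against 103.6 for control 1 and 51.2 for control 2. In both groups the replicate 1 array was the higher, by 2.54 times between the DTT arrays and by 2.02 times between the controls. Because both groups shifted alike, the means of 469 ± 289 in DTT and 77.4 ± 37.1 in control (SD, n = 2) carry a wide spread while the changes within replicates were close, at 6.50-fold and 5.17-fold. Its log2 changes, 2.70 for replicate 1 and 2.37 for replicate 2, differed by less than those of AT4G34630 (3.44 and 2.48). They ranked 7 and 5 among the probe sets tested, and 2 probe sets exceeded AT4G29520 in both replicates.

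The probe set without a listed gene, 247293_at, had signals of 205.5 for DTT 1 and 76.5 for DTT 2, against 29.3 for control 1 and 29.8 for control 2. Its controls were nearly equal, and the DTT arrays, 2.69 times apart, were both higher. The means were 141 ± 91.2 in DTT and 29.6 ± 0.354 in control (SD, n = 2). Replicate 1 gave a 7.01-fold change and replicate 2 a 2.57-fold change, with ranks of 6 and 20. The control signals lay near the median of all probe sets on their arrays, at 0.893 times the median on control 1 and 1.15 times on control 2. A low control signal makes a fold change sensitive to the background of the array. With 64 added to every signal before the logarithm, the changes of 247293_at were 2.89-fold and 1.498-fold.

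**Figure D1:**
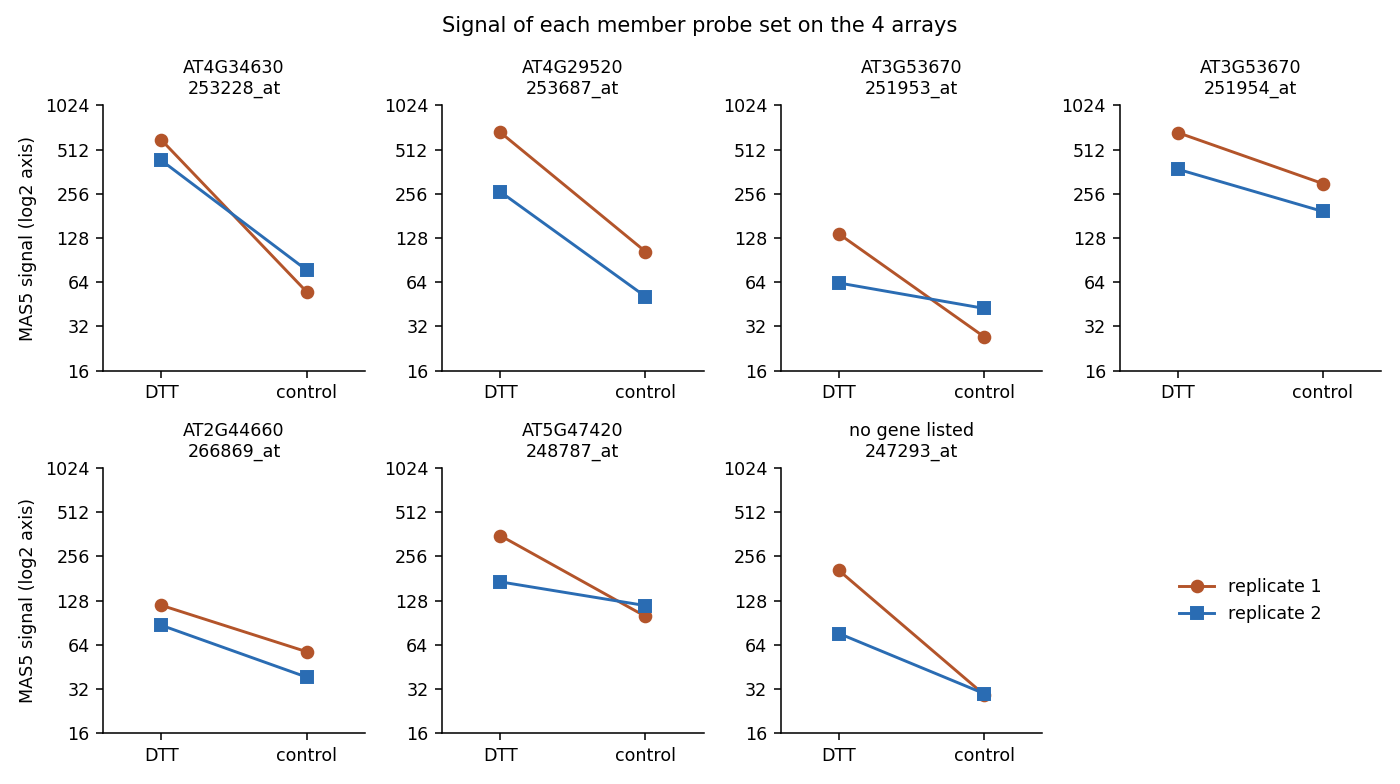
MAS5 signal on a log2 axis of each member probe set in DTT and control leaf discs, with circles for replicate 1 and squares for replicate 2, and a line joining arrays of the same replicate number. Both DTT arrays are above both control arrays in every panel, and the line of replicate 1 falls more steeply than that of replicate 2 in all panels but that of AT2G44660.

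AT3G53670 was read by 2 probe sets, and their changes were unlike. On 251954_at the signal was 669.4 for DTT 1 and 376.9 for DTT 2, against 300.5 for control 1 and 194.2 for control 2. On 251953_at it was 136.6 for DTT 1 and 63.3 for DTT 2, against 27.2 for control 1 and 42.5 for control 2. The groups were apart on each, but the order of the controls was opposite: control 1 was the higher on 251954_at and the lower on 251953_at. The changes were 2.23-fold and 1.94-fold in replicates 1 and 2 on 251954_at, and 5.02-fold and 1.49-fold on 251953_at. The second probe set ranked 13 in replicate 1 and 744 in replicate 2, while the first ranked 104 and 100. RefSeq lists 2 transcripts for AT3G53670, and 1 for each of the other named members. Which transcript each probe set reads was not analysed here. The 27.2 of 251953_at on control 1 was 0.829 times that array's median signal, and with 64 added to every signal the replicate 1 change was 2.20-fold.

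AT2G44660, the glucosyltransferase gene, was higher with DTT by a like amount in both replicates. Its signal was 119 for DTT 1 and 87 for DTT 2, against 57.5 for control 1 and 38.6 for control 2. The replicate 1 array was the higher in each group, by 1.37 times in DTT and 1.49 times in control. The means were 103 ± 22.6 in DTT and 48.1 ± 13.4 in control (SD, n = 2). It was the 1 member with the larger change in replicate 2, at 2.25-fold, against 2.07-fold in replicate 1. These changes ranked 36 in replicate 2 and 134 in replicate 1 among the probe sets tested.

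AT5G47420 had a signal of 355.4 for DTT 1 and 172 for DTT 2, against 100.1 for control 1 and 118.5 for control 2. The controls were close to each other, and DTT 1 stood well above DTT 2. The means were 264 ± 130 in DTT and 109 ± 13 in control (SD, n = 2). Replicate 1 gave a 3.55-fold change and replicate 2 a 1.45-fold change, which ranked 28 and 916 among the probe sets tested. Its replicate 2 change was the smallest of the 7.

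Set side by side, the members agreed in direction and not in size. The mean log2 changes were, from the highest, 2.96 ± 0.68 for AT4G34630, 2.54 ± 0.23 for AT4G29520, 2.09 ± 1.03 for 247293_at, 1.45 ± 1.24 for 251953_at, 1.18 ± 0.91 for AT5G47420, 1.11 ± 0.09 for AT2G44660 and 1.06 ± 0.14 for 251954_at (SD over the 2 replicate numbers). Each neighbouring pair in this order differed by less than the larger of its SDs. Only the first place was the same in both replicates. In replicate 1 the next was 247293_at, and AT2G44660 came last. In replicate 2 AT4G29520 was next, and AT5G47420 came last.

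In all 7 member probe sets both DTT arrays lay above both control arrays, a pattern seen in 8.01% of the probe sets tested. The change was at least 2-fold in both replicates for 4 of the 7, those of AT4G34630, AT4G29520, AT2G44660 and 247293_at, against 0.132% of all tested, which is 18 probe sets. With 16 added to every signal that count was 3 members, and with 64 it was 2. Without a block, limma called 0% of the 13648 probe sets higher at an adjusted p under 0.05, no member among them, and 95 had an unadjusted p under 0.05. With the replicate number as a block it called 0.286% higher, all 7 members included. That call was part of how the members came to be known, so neither it nor the calls below are evidence of their rise. The block fit has 1 residual degree of freedom. With all signals shifted to one median per array, or with no filter on low signals, the block fit called 1 of the 7, AT4G29520. In each of these settings 2 probe sets in all were called higher. With quantile normalization or 16 added to each signal it called 4, among 19 and 18 called higher. Without the mean-variance trend it called 3, among 13, and with robust eBayes 5, among 31. All 7 were called with 64 added, among 50 called higher, and with a 60th percentile filter, among 59. The same held with one median of the tested probe sets per array, among 36. The tested number was 22746 with no filter, 9099 with the 60th percentile filter and 13648 otherwise.

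**Figure D2:**
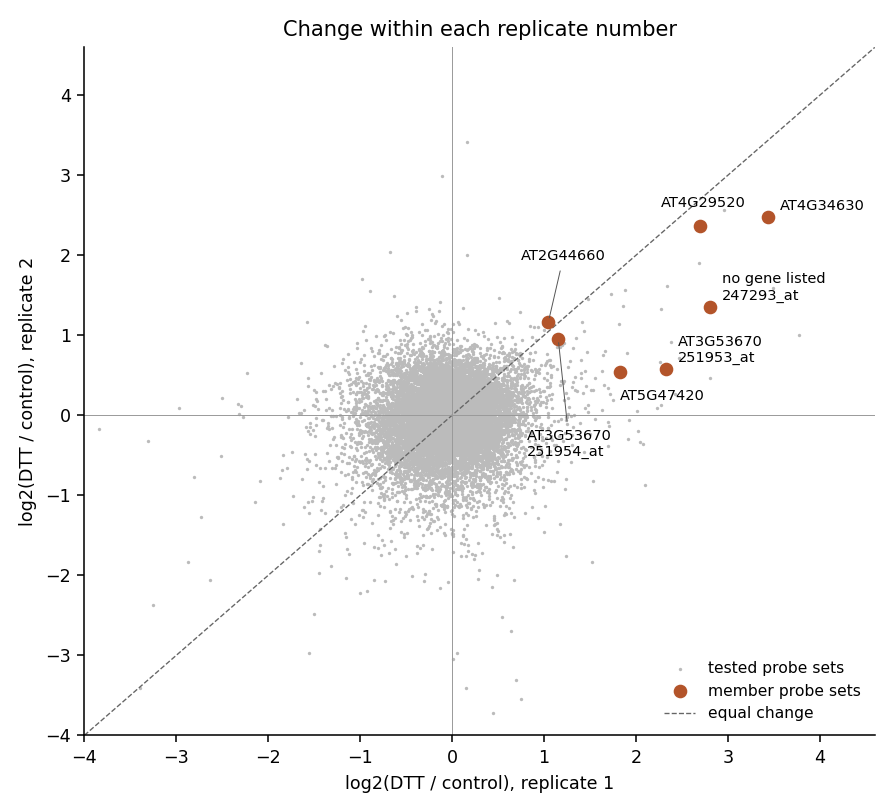
Log2 change of DTT over control in replicate 1 (horizontal) and replicate 2 (vertical) for the 13648 probe sets tested (grey) and the 7 member probe sets (labelled), with a dashed line of equal change; 1 probe set lies outside the axes. AT4G34630, AT4G29520 and 247293_at stand far to the upper right, AT2G44660 and 251954_at lie near the line at about 2-fold, and 251953_at and AT5G47420 lie well below it.

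The changes were mostly larger in replicate 1. The replicate 1 change exceeded that of replicate 2 in 6 of 7 member probe sets, against 47.5% of all tested. This was not particular to the members. The unfolded protein response and ER folding list described below also had a larger median log2 change in replicate 1 (1.18, against 0.69 in replicate 2). The ratio of the replicate 1 fold to the replicate 2 fold was 3.37 for 251953_at, 2.73 for 247293_at, 2.45 for AT5G47420 and 1.94 for AT4G34630, and lay between 0.918 and 1.26 for the other members. DTT 1 was above DTT 2 in 7 of 7, against 55.5% of all tested, by 1.37 to 2.69 times. Control 1 was above control 2 in AT4G29520, 251954_at and AT2G44660 and below it in the others, at 0.64 to 2.02 times. Over all probe sets tested the SD of the log2 change was 0.44 in each replicate, and 156 were at least 2-fold higher in replicate 1, against 82 in replicate 2. The 3' to 5' ratios of actin, ubiquitin and GAPDH were lower with DTT in replicate 1 and higher in replicate 2. The hybridization controls had a median ratio of DTT over control of 0.964 in replicate 1 and 1.05 in replicate 2. The part of either in the members' unequal changes was not tested.

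Likeness among the members was measured on log2 signals over the 4 arrays, each profile centred on its own mean. The closest pair was 251954_at and AT2G44660, at a Euclidean distance of 0.275, followed by 251953_at and AT5G47420, at 0.393. The 2 probe sets of AT3G53670 were 1.003 apart, so each lay closer to the probe set of another member than to the other for its own gene. The other 3 probe sets had no member as close: 247293_at was 0.802 from 251953_at, AT4G29520 was 0.865 from 247293_at, and AT4G34630 was 1.15 from 247293_at.

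The same distance was taken to 7367 other probe sets of single named genes. The nearest to AT4G29520 was ATERDJ3B, which codes for a J-domain co-chaperone of the ER lumen, at 0.817, with signals of 1651 for DTT 1 and 686.5 for DTT 2, against 448.7 for control 1 and 232.1 for control 2. The nearest to 247293_at was GFAT, of the hexosamine pathway, at 0.601, with changes of 5.55-fold and 1.64-fold in the replicates. These changes rest on low signals of 18.8 on control 1 and 17.2 on control 2, each under its array's median. AT2G32030 was nearest both to 251953_at (0.497) and to AT5G47420 (0.356), with changes of 3.24-fold and 1.27-fold. AT1G19025 was nearest to 251954_at (0.220) and AT3G16990 to AT2G44660 (0.232). The signal of AT3G16990 on control 2 was 15.6, under the filter level. The least close match was that of AT4G34630 to ZCF37, at 1.56, with changes of 5.20-fold and 1.89-fold and a signal of 8.1 on control 1, under the filter level. The arrays are 4 in number, so many profiles can lie close.

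Genes of the unfolded protein response and ER folding were set beside the members from a list that did not contain them. Of its 35 genes, the annotation used matched 9 to a probe set of their own, and all 9 passed the filter. It lists no gene for 8730 of the 22746 probe sets, so the other genes may be on the array without a match. The same limit holds for the lists and flanking genes below. Without the block limma called 0 of the 9, and with it 4 higher and 0 lower. Among all 13648 tested, the block fit called 39 higher (0.286%) and 87 lower. Both DTT arrays lay above both control arrays for 6 of the 9, beside 8.01% of all tested. The median log2 change over the 9 was 1.02 (1.18 for replicate 1 and 0.69 for replicate 2), beside -0.01 over all probe sets tested. ATERDJ3B was 3.30-fold higher (log2 SE 0.21, limma adjusted p = 1.68e-05 with the block), with log2 changes of 1.88 and 1.56. The other genes called were AT5G07340, a calnexin, CRT1b, a calreticulin, and DER2.1, a Derlin of ER-associated degradation, between 2.02-fold and 2.45-fold. The 5 genes not called are named after their values were seen. The transcription factor BZIP60 had log2 changes of 0.81 and 0.54, with both DTT arrays above both controls. The Derlin DER1 had 1.63 and 0.07, and another, DER2.2, had 0.38 and -0.15. BZIP28, also a transcription factor, had -0.004 and -0.36, and a further one, BZIP17, had -0.11 and 2.99. The replicate 2 change of BZIP17 rested on a signal of 3.9 on control 2, under the filter level. Its other signals were 64.9 on control 1, 60.3 on DTT 1 and 30.9 on DTT 2. The mean changes of AT4G34630, AT4G29520 and 247293_at were larger than that of ATERDJ3B, and those of 266869_at and 251954_at were near that of DER2.1. These differences between genes were not tested. Since this list was written with earlier results of these arrays known, its counts are no independent evidence.

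Genes of N-glycan assembly and transfer, the pathway of AT2G44660, were listed in the same way. Of 24 listed genes other than AT2G44660 itself, 8 were matched to a probe set of their own and 7 passed the filter. Limma called 0 of the 7 without the block and 0 with it, beside 0.286% of all tested called higher with it. In none did the DTT arrays both exceed the controls, beside 8.01% of all tested, so counts of 0 among 7 genes do not set this list apart. Its difference from the ER list was not tested. None had an unadjusted p under 0.05 with the block. The median log2 change over the 7 was -0.05 (-0.19 for replicate 1 and -0.10 for replicate 2), beside -0.01 over all tested. The smallest p belonged to AT1G16570, a mannosyltransferase of the early steps, with log2 changes of -0.37 and -0.48 (limma adjusted p = 0.740 with the block). GPT, which starts the lipid-linked precursor, followed with 0.96 and -0.24 (adjusted p = 0.877 by the same limma fit). AT5G38460, of the same glucosyltransferase family as AT2G44660 and picked after its values were seen, had signals of 37.3 and 29.6 on the DTT arrays and 44.2 and 26.8 on the control arrays. The groups overlapped for this relative. Those of AT2G44660 did not, but it was chosen for its rise, so the contrast is no independent evidence. Of 10 listed genes of the cytosolic heat shock response, 2 were matched to a probe set of their own and neither passed the filter.

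**Figure D3:**
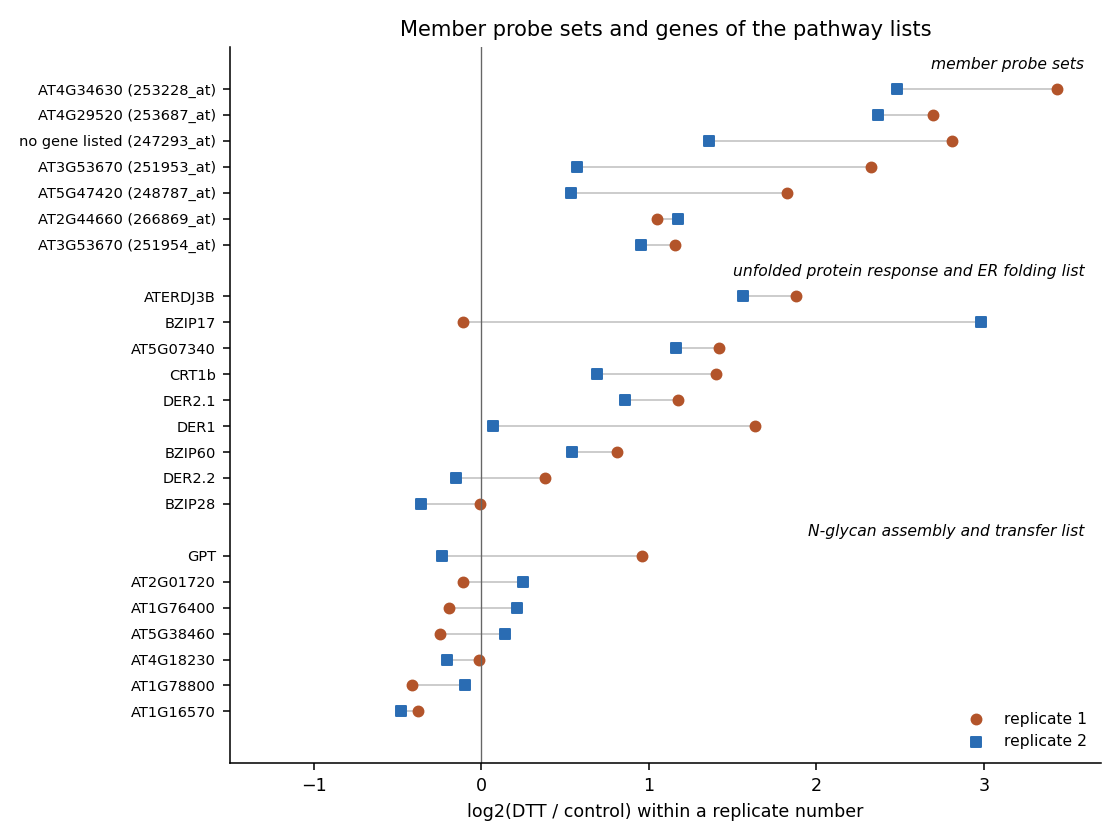
Log2 change of DTT over control in replicate 1 (circles) and replicate 2 (squares) for the 7 member probe sets, 9 genes of the unfolded protein response and ER folding list and 7 genes of the N-glycan list, each block ordered by its mean change. All member values lie right of 0, as do those of 6 genes of the ER list, while each of the 7 N-glycan genes has at least 1 replicate left of 0.

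Genes next to the members on the chromosome were also read. In the order of protein-coding genes in RefSeq, the 5 named members have 10 flanking genes, of which 5 had a matched probe set of their own above the filter. In none of the 5 did the DTT arrays both exceed the controls, a count that does not set them apart from the 8.01% of all tested. Their log2 changes ran between -0.61 and 0.72 in replicate 1 and between -0.44 and 0.60 in replicate 2. AT2G44670, next to AT2G44660 and named after its values were seen, was the 1 flanking gene that was higher in both replicates, with 0.72 and 0.60.

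The log2 change of every member stayed positive in each alternative tried, while its size varied. With 16 or 64 added, or without an array, the sign could not change, because both DTT arrays lay above both controls. The members were also chosen for their rise, so the direction is no independent evidence. Over other scalings the 7 mean log2 changes lay between 1.03 and 3.05, and with 16 or 64 added to each signal between 0.57 and 2.68. With 64 added, AT4G34630 had 2.14, AT4G29520 1.83 and 247293_at 1.06. Leaving out DTT 1 gave 0.64 for 251954_at, 0.66 for AT5G47420, 0.90 for 251953_at and 1.37 for 247293_at, against 1.06, 1.18, 1.45 and 2.09 with all arrays. Leaving out DTT 2 gave 1.47, 1.71, 2.01 and 2.80 for the same probe sets. AT4G34630 kept between 2.71 and 3.20 whichever array was left out, and AT4G29520 between 1.86 and 3.21. Leaving out an array also unbalances the replicate numbers, so these values mix the replicate difference with that between DTT and control.

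**Figure D4:**
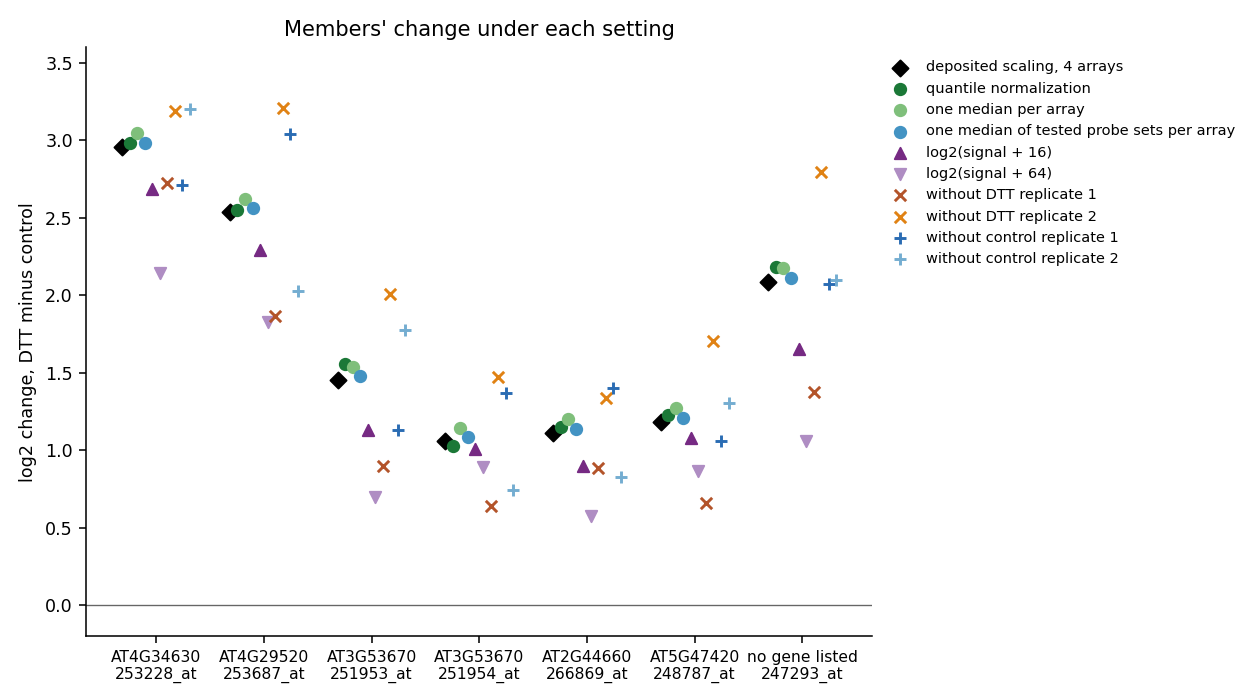
Mean log2 change of DTT over control for each member probe set with the deposited scaling (diamond), with other scalings (circles), with 16 or 64 added to each signal (triangles) and without each array (crosses and plus signs). All values are above 0; the lowest is 0.57 for AT2G44660 with 64 added, and AT4G34630 has the highest value under most settings.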

How the data were processed

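Total RNA extracted with TRIzol was biotin-labelled and hybridized to ATH1 arrays, per the labels' protocols. The authors deposited 1 linear signal intensity per probe set and array, computed in MAS5 according to the submitters' processing notes; its version and settings are not stated there. Each array's mean was 100 after trimming 2% at each end, so the authors had scaled every array alike, and a change in total mRNA cannot be seen.

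Sample titles gave the groups and the replicate numbers. The 92 signals of 0 were set to 0.1 and log2 was taken. Of 22746 non-control probe sets, the 13648 with a mean log2 signal of at least the 40th percentile (4.08) were tested in limma 3.58.1 (R 4.3.3; lmFit, then eBayes with trend), and p-values were adjusted by Benjamini and Hochberg. The fits were tested on simulated data. All log2 changes are DTT minus control. The supplied annotation gave 1 gene for 13513 of these 22746, several for 503 and none for 8730; 13436 matched a RefSeq locus (assembly TAIR10.1, names and gene order only). A listed gene was represented by its probe set of highest mean. No protein or promoter sequence was used here.

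The members and lists were chosen with earlier results of these data known. Named were the members, the nearest probe set to each, and in each list up to 4 genes past the test by smallest p, or, failing any, the 2 of smallest p; exceptions are marked. Alternatives were other scalings, pseudocounts of 16 and 64, filters, variance settings, the replicate block, and fits without each array. The number of arrays, 2 per group, limits the precision. Plots were drawn with Python 3.11.15 and matplotlib 3.10.9.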

Additional observations from a re-analysis of the deposited data

How the results depend on the processing

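No label ties arrays of equal number to a shared batch. The difference between replicates in DTT correlated at 0.746 with that in control over the probe sets tested. Without a block, limma called 0 probe sets under every alternative with 4 arrays and 0 to 3 without single arrays (3 without DTT 1, all lower). With the replicate block it called 126, and joined with other choices 51 (quantile normalization), 3 (one median per array), 92 (one median of the tested probe sets per array, an alternative added after seeing the data), 58 and 135 (16 and 64 added), 3 (no filter), 176 (60th percentile filter), 35 (no mean-variance trend) and 105 (robust eBayes). The cause of these shifts was not tested. One median per array moved the median log2 change in replicate 1 to 0.12, against -0.03 as deposited. Both DTT arrays lay above both controls for 1093 probe sets, for 1746 with no filter, which tests more probe sets, and for 3124 to 4301 without single arrays, where 3 signals are compared and not 4. Probe sets at least 2-fold higher in both replicates numbered 18, and 10, 6 and 168 with 16 added, 64 added and no filter. All 63 values of the members' log2 change under alternatives were positive. Only the 21 from other scalings could have changed sign. Of the 63, 43 differed from the value as deposited by no more than the SD of that member's 2 replicate changes. This measure is looser where the replicates agreed less. The 0.70 of 251953_at with 64 added lay within it, while the 1.20 of AT2G44660 with one median per array did not. Detection calls were not used here, so how far the control signals of 247293_at and 251953_at stood above background is unknown.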
